A study of Drosophila melanogaster with 4 samples.

Results

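The line LU.10580hom, called hom here, was set against LU.10580/CAG, LU.10580.tg1 and LU.10580.tg2, called CAG, tg1 and tg2, in Drosophila melanogaster at the pharate adult stage, when the fly is formed but still lies in its pupal case. RNA freed of ribosomal RNA was sequenced from 1 library per line, and expression was deposited as FPKM, a measure of fragments scaled to transcript length and library size, for 13866 loci. All 4 lines were raised on the same cornmeal food at 24 °C. The sources used here do not say what the line names stand for, nor give the sex, the exact age or the number of animals pooled. The CAG values stand under a column headed het.

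Of 12066 loci that carry a single gene name, the 10051 with a 4-library mean of 1 FPKM or more were kept. At each of them the difference of hom was its log2(FPKM + 1) minus the mean log2(FPKM + 1) of CAG, tg1 and tg2. The spread of these 3 lines, as a standard deviation and never below the median for loci of like level, served as the noise scale. A locus was called where hom differed by at least 1, a 2-fold difference, and by at least 3 times the noise scale. Just inside the filter lay CG11413 and 1 of the loci named PRY, with means of 1.0025 and 1.0027 FPKM, and just outside lay Osi12 and Oseg6, with means of 0.995 and 0.996 FPKM. No line has a replicate, so the noise scale measures how 3 different lines vary, no p-value was computed and no call has a replicate check.

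The pharate adult is the end of metamorphosis. Larval fat body, whose stored proteins feed the animal through the pupal stage, is being used up, the adult cuticle has been laid down and is being readied for tanning, and the adult nervous system, eyes, muscles and reproductive glands are in place. Flies answer bacteria and fungi through the Toll and Imd pathways, which act mainly in the fat body and release short peptides into the blood. The Imd pathway is best known for inducing diptericins, drosocin and other antibacterial peptides, and the Toll pathway for inducing drosomycin and the Bomanins. RNA came from pharate adults with no dissection recorded, so fewer cells of a type and less RNA per cell cannot be told apart.

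In hom, 69 of the 10051 loci were called higher, 0.686% of those tested, and 80 were called lower, 0.796%, together 149 or 1.48%. Of these, 63 of the 69 called higher and 68 of the 80 called lower were protein-coding and above 0 in every library. Some higher calls passed the filter of 1 FPKM only through their hom value. In the other lines CG10182, CG30288, CG18823, CG15820, CG15169 and Cht4 had means of 0.0879, 0.606, 0.638, 0.681, 0.833 and 0.526 FPKM. Listed at 0 in every other line were snoRNA:Me18S-G1358b and snoRNA:Me18S-G894, which also passed only through hom. The hom value lay above each of the other 3 lines at 2879 loci, 28.6%, and below each of them at 2880, 28.7%, and the median difference over all loci was −0.003. Differences of at least 1 without a call were found at 72 higher and 135 lower loci, because CAG, tg1 and tg2 themselves were spread there. At 50 higher and 57 lower calls hom was at least 1 away from every other line on the log2 scale. Leaving out CAG gave 105 higher and 100 lower calls, leaving out tg1 gave 92 and 144, and leaving out tg2 gave 73 and 81. Of the reported calls, 44 higher and 43 lower were made in all 3 of these comparisons.

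**Figure D1:**
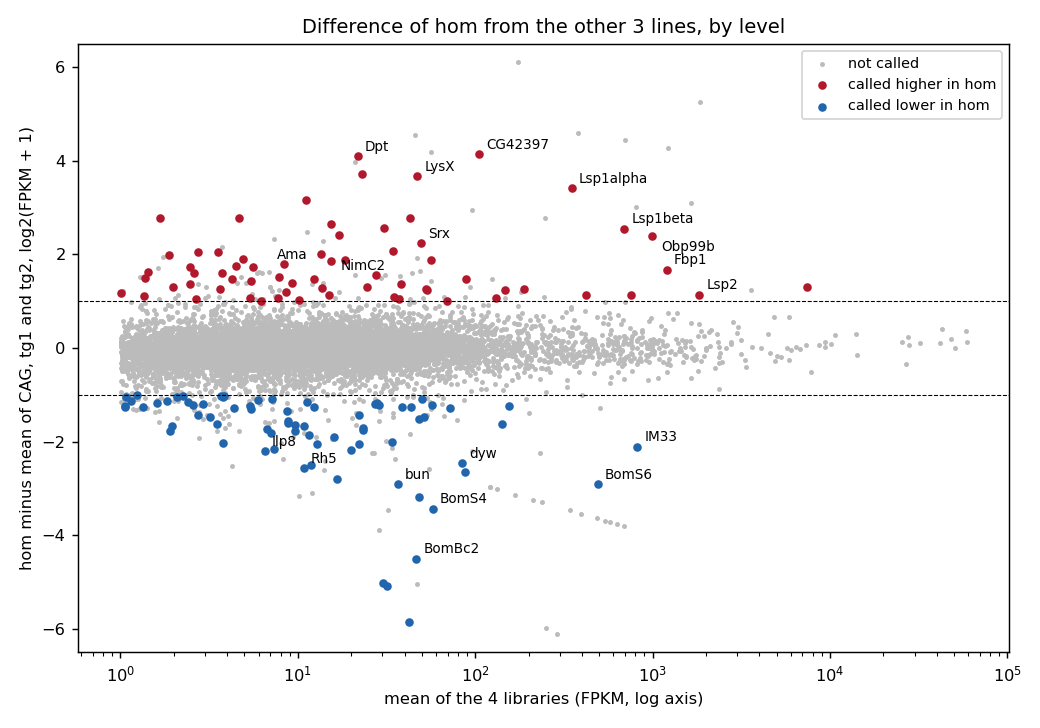
Difference of hom from the mean of CAG, tg1 and tg2 on the log2(FPKM + 1) scale (vertical axis) against the mean FPKM of the 4 libraries (horizontal log axis), with 1 point per tested locus between −6.5 and 6.5. Red points are the loci called higher and blue points those called lower, dashed lines mark a difference of 1 in each direction, and Dpt, LysX and Lsp1alpha lie far above the line while BomBc2 and BomS4 lie far below it.

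Depth relative to CAG, read from the steps between the lowest values, was 0.771 for hom, 1.12 for tg1 and 1.16 for tg2. Low values in hom therefore rest on fewer fragments. Listed at 0 were 57 tested loci in hom, against 36 in tg1, 36 in tg2 and 29 in CAG. Of the 57 in hom, 32 were small nucleolar RNA loci, where a 0 can be a failed estimate. The part of depth in these zeros was not tested. The median over tested loci was 11.3 FPKM in hom, 11.6 in CAG, 11.1 in tg1 and 11.6 in tg2. Calls were made at all levels, at 1.89% of loci in the lowest of 10 bins by mean FPKM, 0.697% in the seventh and 2.59% in the highest.

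Immune peptide genes held some of the largest differences of protein-coding loci, in both directions. The antibacterial or antifungal peptide genes Dpt, Dro, Mtk and DptB were higher in hom by 3.33 to 17.2 times on the scale of FPKM + 1. Of the Bomanins and related peptides 8 genes were lower. Of the 13 tested antimicrobial peptide loci 4 were called higher and 0 lower, against 0.686% and 0.796% of all loci. Of the 13 tested Bomanin and related loci 0 were called higher and 8 lower.

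Dpt encodes diptericin, a glycine-rich antibacterial peptide that is a standard readout of the Imd pathway, and lies at 2R:14753270-14753765 on build dm3. It had 76.3 FPKM in hom, against 2.25 in tg1, 4.96 in tg2 and 3.68 in CAG. The difference of 4.10 on the log2 scale was 9.34 times the noise scale. Its neighbour DptB, the second diptericin, at 2R:14754895-14755400, had 6.21 FPKM in hom, against 0.581 in tg1, 1.72 in tg2 and 1.35 in CAG. Both genes were highest in hom, and at DptB the other 3 lines differed by up to 3 times among themselves.

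Drosocin, the product of Dro at 2R:10633461-10633821, is a proline-rich antibacterial peptide. Dro had 34.9 FPKM in hom, against 3.64 in tg1, 3.87 in tg2 and 1.84 in CAG, a difference of 3.16. Metchnikowin, the product of Mtk, acts on fungi and bacteria. Of the 2 loci named Mtk, which share the span 2R:11288574-11297431, one had 119.8 FPKM in hom, against 21.9 in tg1, 13.7 in tg2 and 15.3 in CAG, a difference of 2.78. The other had 4.0 FPKM in hom, against 5.23 in tg1, 5.20 in tg2 and 5.34 in CAG, so only one of the 2 loci carried the difference. Dpt, Dro, DptB and the higher Mtk locus were called whichever of the other lines was left out.

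The remaining antimicrobial loci were not called. Drs, the antifungal peptide drosomycin and a standard Toll readout, had 151.5 FPKM in hom, against 99.4 in tg1, 84.7 in tg2 and 94.9 in CAG. Its difference of 0.70 was 4.0 times the noise scale but below 2-fold. CecA1, a cecropin, had 10.5 FPKM in hom, against 4.30 in tg1, 2.55 in tg2 and 8.21 in CAG, with the other lines too widely spread for a call. CecA2, CecB, CecC, Def, Drsl5 and AttD lay inside the range of the other 3 lines. The list median was 0.41, and 0.12 without CAG, 0.62 without tg1 and 0.50 without tg2.

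The Bomanins are short secreted peptides that flies need to survive infection by Gram-positive bacteria and fungi. At 2R:14271457-14278114, within 7 kb, lay 6 of the 8 called loci side by side. BomBc2 (CG15067 in the files) had 1.68 FPKM in hom, against 62.0 in tg1, 44.4 in tg2 and 77.9 in CAG, a difference of −4.51. BomS4 (CG18107) had 5.93 FPKM in hom, against 64.2 in tg1, 68.3 in tg2 and 91.8 in CAG, a difference of −3.43. BomS6 (CG15068), the most abundant of the 6, had 81.9 FPKM in hom, against 628 in tg1, 526 in tg2 and 725 in CAG. Its difference of −2.91 was −12.6 times the noise scale, and at these 3 genes the other lines lay within a factor of 2 of each other while hom was at least 6 times lower than any of them.

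BomS3 (IM3) had 4.88 FPKM in hom, against 40.6 in tg1, 30.2 in tg2 and 117 in CAG. BomS1 (IM1) had 3.01 FPKM in hom, against 10.8 in tg1, 8.95 in tg2 and 15.6 in CAG. BomS2 (IM2) was listed at 0 in hom, which can be a failed estimate, against 37.3 FPKM in tg1, 11.7 in tg2 and 79.1 in CAG. At BomS2 and BomS3 the other lines were themselves spread, with CAG highest, and without tg1 neither was called although the differences were −4.996 and −3.37. BomT2 (CG16836) had 0.874 FPKM in hom, against 5.10 in tg1, 5.90 in tg2 and 21.0 in CAG, and missed the call for the same reason.

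Outside the cluster, IM33 (CG16712), an immune-induced gene at 2L:3696240-3696661, had 229 FPKM in hom, against 681 in tg1, 1205 in tg2 and 1173 in CAG, a difference of −2.11. Dso2 (IM14) at 2R:16757930-16758134, which encodes a Daisho peptide of the Toll response, had 75.6 FPKM in hom, against 214 in tg1, 145 in tg2 and 186 in CAG. IM33 and Dso2 lie on different chromosome arms or far from the cluster and were lower in hom in the same way. Dso1, the other Daisho gene, had 9.17 FPKM in hom, against 21.5 in tg1, 7.47 in tg2 and 31.3 in CAG, so tg2 lay below hom. BomT3 went the other way, with 1.78 FPKM in hom, against 1.20 in tg1, 0.876 in tg2 and 1.04 in CAG, and was not called. The median of the 13 loci was −2.38, with 10 below and 1 above all other lines, against 28.7% and 28.6% of all loci.

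**Figure D2:**
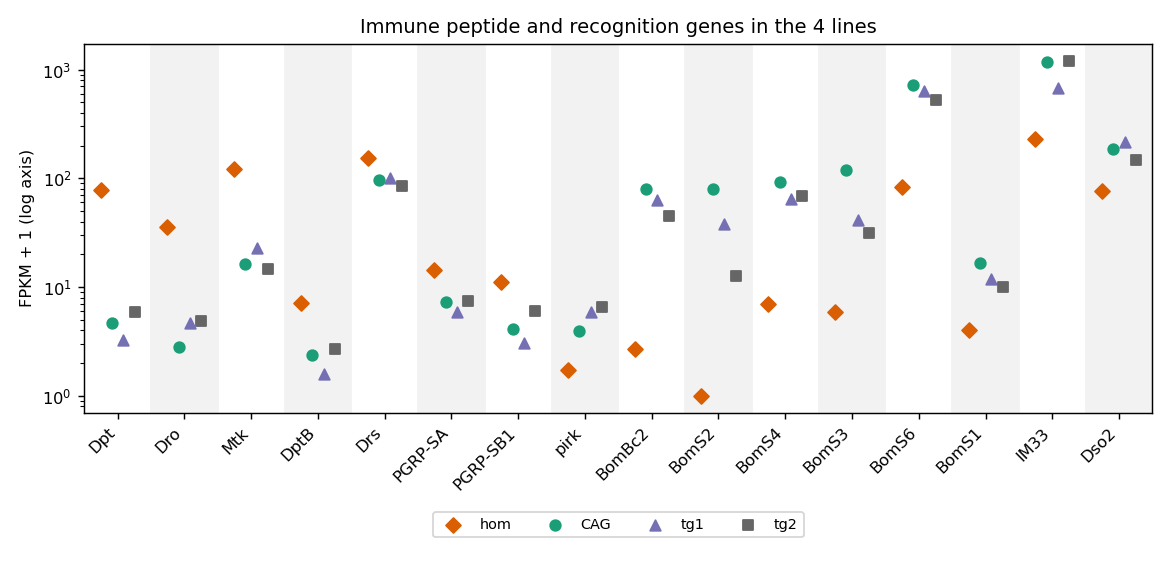
FPKM + 1 (vertical log axis) of 16 immune genes (horizontal axis) in the hom (diamond), CAG (circle), tg1 (triangle) and tg2 (square) libraries, 1 point per library. The hom point lies above the other 3 for Dpt, Dro, Mtk, DptB and Drs, and below them for pirk and for all 8 Bomanin and related genes on the right.

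Receptors and signalling components differed less than the peptides. Of 26 tested Toll and Imd loci 1 was called higher and 1 lower, against 0.686% and 0.796% of all loci. Above all other lines lay 10 and below them 5, against 28.6% and 28.7% of all loci, and the median difference was 0.10, or 0.15 without tg1 and 0.03 without tg2. PGRP-SA, the circulating receptor that binds peptidoglycan upstream of Toll, had 13.4 FPKM in hom, against 4.85 in tg1, 6.41 in tg2 and 6.31 in CAG, a difference of 1.08. The lower call was pirk, which restrains Imd signalling at its receptors and is itself induced by the pathway. It had 0.731 FPKM in hom, against 4.88 in tg1, 5.52 in tg2 and 2.91 in CAG, a difference of −1.62. Both calls were lost without tg1, where the differences were 0.97 for PGRP-SA and −1.54 for pirk.

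PGRP-SB1, a secreted enzyme that cleaves peptidoglycan, had 10.2 FPKM in hom, against 2.08 in tg1, 5.03 in tg2 and 3.14 in CAG, and missed the call on the spread of the other lines. PGRP-SD, a secreted recognition protein, had 20.8 FPKM in hom, against 8.45 in tg1, 13.4 in tg2 and 9.31 in CAG. The Imd adaptor imd had 13.2 FPKM in hom, against 9.30 in tg1, 8.11 in tg2 and 9.70 in CAG. Rel, the NF-kB factor of the Imd pathway, had 20.9 FPKM in hom, against 15.1 in tg1, 15.04 in tg2 and 15.9 in CAG. All 4 genes were highest in hom without reaching a call. The receptor PGRP-LC differed by −0.22, and the Toll pathway genes Tl, spz, cact, dl and Dif by −0.14 to −0.01.

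Achl (CG17386), achilles, a clock-controlled gene that has been linked to immune function, was lower in hom. Its locus at 2R:10307846-10312099 had 54.2 FPKM in hom, against 155 in tg1, 147 in tg2 and 211 in CAG, a difference of −1.62. Of 21 tested blood cell loci only NimC2 was called, on the higher side, against 0.686% of all loci. NimC2, a Nimrod-family gene related to receptors for phagocytosis, had 35.1 FPKM in hom, against 8.49 in tg1, 8.54 in tg2 and 9.67 in CAG, a difference of 1.87. The blood cell marker Hml had 61.5 FPKM in hom, against 74.0 in tg1, 57.5 in tg2 and 52.8 in CAG. Summed over the 5 blood cell markers, hom had 113 FPKM, against 139 in tg1, 90.8 in tg2 and 96.3 in CAG, inside the range of the other lines.

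Larval storage protein genes were higher in hom. Hexamerins are made by the larval fat body, released into the blood and taken back up before pupation as a store of amino acids. Of the 5 tested hexamerin and receptor genes 4 were called higher, against 0.686% of all loci. All 5 lay above the other 3 lines, against 28.6% of all loci, and the median difference was 1.67.

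Lsp1alpha at X:12384416-12386933 had 1059.9 FPKM in hom, against 51.1 in tg1, 96.3 in tg2 and 193 in CAG, a difference of 3.41. Lsp1beta at 2L:898647-901318 had 1788 FPKM in hom, against 209.9 in tg1, 273 in tg2 and 491 in CAG, a difference of 2.55. Lsp2 at 3L:12122493-12124796 had 3105 FPKM in hom, against 1502 in tg1, 1309 in tg2 and 1413 in CAG, a difference of 1.14. The gap was largest for Lsp1alpha, which also varied most among the other lines. Lsp1gamma had 718 FPKM in hom, against 395 in tg1, 357 in tg2 and 662 in CAG, and was not called. Without tg2 the calls of Lsp1alpha and Lsp1beta were lost, with differences of 3.40 and 2.47.

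Fbp1, the fat body receptor that takes hexamerins back up, lies at 3L:14087687-14091156. It had 2460.2 FPKM in hom, against 761 in tg1, 660.1 in tg2 and 914 in CAG, a difference of 1.67. CG8100, which lies less than 20 kb from Fbp1, had 81.1 FPKM in hom, against 17.9 in tg1, 15.2 in tg2 and 23.6 in CAG. Both were called whichever other line was left out. The 6 fat body markers, which are these 5 genes and apolpp, summed to 9918 FPKM in hom, against 3391 in tg1, 3233 in tg2 and 4185 in CAG. How far the amount of fat body RNA enters the immune and storage differences was not tested. Of the 6, apolpp, the precursor of the main lipid carrier in the blood, had 788 FPKM in hom, against 473 in tg1, 538 in tg2 and 512 in CAG, a difference of 0.64. Over 15 tested lipid storage and transport loci 0 were called, against 1.48% of all loci, and the median was −0.03.

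Secreted proteins of several other families were also among the calls. Obp99b, an odorant-binding protein, a small carrier of hydrophobic molecules, lies at 3R:25541974-25542532 and had 2507 FPKM in hom, against 394 in tg1, 446 in tg2 and 622 in CAG, a difference of 2.39. Obp99c, of the same family, had 1259 FPKM in hom, against 743 in tg1, 448 in tg2 and 577 in CAG, and without CAG or tg2 it was not called, at 1.12 and 0.94. The family split, because Obp19b and Obp93a were called lower. Obp19b had 0.133 FPKM in hom, against 1.32 in tg1, 1.80 in tg2 and 1.32 in CAG. Of the 30 tested odorant-binding loci 2 were called higher and 2 lower, against 0.686% and 0.796% of all loci. Above all other lines lay 8, or 26.7%, and below them 16, or 53.3%, against 28.6% and 28.7% of all loci. The list median was −0.31.

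Lysozyme genes, which in flies mostly serve digestion, differed in both directions within one cluster on 3L. LysX at 3L:1194739-1195302 had 149.8 FPKM in hom, against 9.05 in tg1, 23.1 in tg2 and 5.88 in CAG, a difference of 3.67. LysD had 5.88 FPKM in hom, against 32.1 in tg1, 23.0 in tg2 and 28.0 in CAG, a difference of −2.05. LysB had 0.361 FPKM in hom, against 7.89 in tg1, 4.08 in tg2 and 2.79 in CAG. Thus of 6 tested lysozyme loci 1 was called higher and 2 lower, against 0.686% and 0.796% of all loci. Copies in this cluster are alike enough to share fragments, which leaves the division of reads among them uncertain. The LysX call was lost without tg1, at 3.55, and the LysB call without tg2, at −2.09.

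Ag5r2, a secreted protein of the antigen 5 family, had 75.9 FPKM in hom, against 8.02 in tg1, 4.90 in tg2 and 2.65 in CAG, a difference of 3.73. Ama, amalgam, a secreted cell adhesion protein of the immunoglobulin superfamily, had 32.1 FPKM in hom, against 6.51 in tg1, 8.08 in tg2 and 7.09 in CAG. Its difference of 2.01 was 14.6 times the noise scale, and the other 3 lines lay close together. CG42397 had the largest positive difference of a called protein-coding locus without a 0, at 4.15, with 350.3 FPKM in hom, against 39.2 in tg1, 24.2 in tg2 and 6.65 in CAG, and its call was lost without tg2, at 4.32. CG18180 and CG18179 had larger differences of 4.59 and 4.55 and were not called. CG18180 had 1309.9 FPKM in hom, against 80.2 in tg1, 122 in tg2 and 15.03 in CAG. Genes known only by a CG number made up 32 calls on the higher side and 42 on the lower. Their share of all tested loci was not computed, so these counts carry no result about such genes.

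Several CG genes lay far from the other lines in hom, although those lines varied among themselves as well. CG42587 at 2L:14744897-14745210 had 43.1 FPKM in hom, against 4.59 in tg1, 5.73 in tg2 and 8.19 in CAG, a difference of 2.65. CG18563 at 2L:17452924-17458775 had 45.3 FPKM in hom, against 6.33 in tg1, 7.60 in tg2 and 9.35 in CAG, a difference of 2.41. CG5162 at X:17109335-17111249 had 2.09 FPKM in hom, against 14.3 in tg1, 27.4 in tg2 and 22.3 in CAG, a difference of −2.81. CG42587 and CG18563 were highest in hom by a wide margin and CG5162 lowest. CG11313 at 3R:26555559-26567010 had 14.5 FPKM in hom, against 1.64 in tg1, 0.519 in tg2 and 1.85 in CAG, and CG15255 at 2L:15610732-15611969 had 1.28 FPKM in hom, against 8.63 in tg1, 11.6 in tg2 and 7.67 in CAG. All 5 were called whichever of the other lines was left out.

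Serpins are protease inhibitors, some of which hold back the Toll cascade and the melanin reaction in the blood. Of 14 tested loci 1 was called higher and 1 lower, against 0.686% and 0.796% of all loci, and the median was −0.28, or −0.10 without CAG and −0.43 without tg2. Spn28B (Spn7) had 0.638 FPKM in hom, against 2.89 in tg1, 3.60 in tg2 and 3.81 in CAG, a difference of −1.43 that was called in every comparison with 1 line left out. Spn100A had 15.5 FPKM in hom, against 7.58 in tg1, 4.26 in tg2 and 7.15 in CAG, a difference of 1.20 that was called in none of them, at 1.29 without CAG, 1.33 without tg1 and 0.98 without tg2. Oat, ornithine aminotransferase, had 61.2 FPKM in hom, against 31.1 in tg1, 25.3 in tg2 and 31.6 in CAG, and at 0.94 without tg2 was not called. Jhbp11 (CG17189), named as a juvenile hormone binding protein, had 4.33 FPKM in hom, against 12.3 in tg1, 21.3 in tg2 and 25.8 in CAG, a difference of −1.90 that was −1.82 and not called without tg2.

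**Figure D3:**
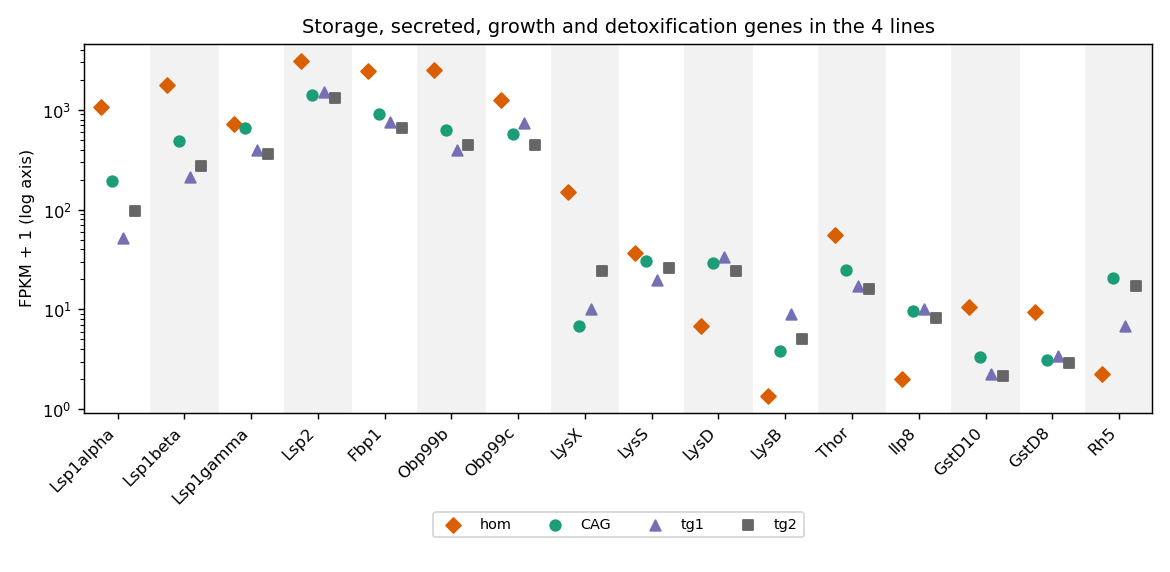
FPKM + 1 (vertical log axis) of 16 storage, secreted, growth, detoxification and opsin genes (horizontal axis) in the hom (diamond), CAG (circle), tg1 (triangle) and tg2 (square) libraries, 1 point per library. The hom point is the highest of 4 for the Lsp genes, Fbp1, Obp99b, Obp99c, LysX, LysS, Thor, GstD10 and GstD8, and the lowest of 4 for LysD, LysB, Ilp8 and Rh5.

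Growth and hormone genes gave single calls rather than shifts of whole pathways. Thor, the translation repressor 4E-BP that FOXO induces when insulin signalling is low, had 54.7 FPKM in hom, against 16.3 in tg1, 15.1 in tg2 and 23.6 in CAG, a difference of 1.55. Ilp8 (CG14059), the relaxin-like peptide that damaged or overgrown larval tissues release to delay metamorphosis, had 1.01 FPKM in hom, against 9.01 in tg1, 7.18 in tg2 and 8.74 in CAG. Its difference of −2.20 was −13.99 times the noise scale, and the other 3 lines were nearly level. Of 16 tested insulin pathway loci 1 was called higher, Thor, and 1 lower, Ilp8, against 0.686% and 0.796% of all loci. The list median was −0.03. Ilp6, the insulin-like peptide of the fat body, had 49.8 FPKM in hom, against 38.3 in tg1, 30.6 in tg2 and 36.2 in CAG. Lst (CG8317), limostatin, a hormone that lowers insulin release, had 93.7 FPKM in hom, against 32.5 in tg1, 32.4 in tg2 and 53.3 in CAG, and its call was lost without tg1 and without tg2, at 1.15 each.

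Ecdysone, the moulting hormone, has fallen again by the pharate adult stage. Of 19 tested loci of ecdysone response and synthesis 2 were called higher and 0 lower, against 0.686% and 0.796% of all loci. The calls were the ecdysone-inducible genes ImpL1 and ImpE3, and the list median was 0.09, or 0.14 without CAG. ImpL1 had 5.32 FPKM in hom, against 1.51 in tg1, 0.899 in tg2 and 2.12 in CAG, and was not called without tg1, at 1.38. ImpE3 had 9.52 FPKM in hom, against 3.83 in tg1, 3.62 in tg2 and 4.64 in CAG. The early response gene br had 9.78 FPKM in hom, against 4.25 in tg1, 5.04 in tg2 and 5.26 in CAG, a difference of 0.89 that fell short of a call. The receptor EcR and the early genes Eip74EF and Eip75B differed by −0.05, 0.01 and −0.14. Outside that list sro, shroud, an enzyme of ecdysone synthesis, had 4.32 FPKM in hom, against 0.81 in tg1, 1.14 in tg2 and 1.63 in CAG, a difference of 1.30.

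Of the regulators called lower, bun at 2L:12455538-12546630 encodes transcription regulators of the TSC-22 family that act in growth. One of its 2 loci had 5.25 FPKM in hom, against 36.3 in tg1, 48.8 in tg2 and 55.5 in CAG, a difference of −2.92. The other, over the same span, had 109.7 FPKM in hom, against 113.0 in tg1, 111 in tg2 and 118 in CAG, so the greater share of bun expression differed little. A similar case was dyw (CG2650), daywake, which shares the span X:2579613-2587919 with the clock gene per. The dyw locus had 18.2 FPKM in hom, against 80.3 in tg1, 113 in tg2 and 124 in CAG, a difference of −2.46, while per had 1.79 FPKM in hom, against 1.20 in tg1, 1.22 in tg2 and 1.65 in CAG. Where loci share a span the division of fragments between them is uncertain. Tps1, which makes the precursor of the blood sugar trehalose, had 27.6 FPKM in hom, against 49.5 in tg1, 68.0 in tg2 and 82.8 in CAG, and was not called without tg2, at −1.19.

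The detoxification and stress gene families differed in direction and in how many of their loci were called. Glutathione transferases conjugate glutathione to foreign and oxidised compounds. Of 27 tested loci 3 were called higher and 0 lower, against 0.686% and 0.796% of all loci. Above all other lines lay 11 and below them 5, against 28.6% and 28.7% of all loci. The median was 0.15, or 0.24 without tg1. GstD10 had 9.45 FPKM in hom, against 1.27 in tg1, 1.13 in tg2 and 2.36 in CAG, and its neighbour GstD8 had 8.52 FPKM in hom, against 2.39 in tg1, 1.94 in tg2 and 2.13 in CAG. GstE3 had 112 FPKM in hom, against 64.6 in tg1, 54.3 in tg2 and 47.0 in CAG, a difference of 1.01 that was 0.90 and not called without CAG. In the same family GstE4, GstE10 and GstE14 lay below all other lines, at −0.69, −0.74 and −0.77.

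Heat shock proteins are chaperones. Of 20 tested loci Hsp23 was called higher, 12 lay above and 2 below all other lines and the median was 0.18. Over all loci 0.686% were called higher, 28.6% lay above and 28.7% below. Hsp23, of the small heat shock class, had 705 FPKM in hom, against 333 in tg1, 262 in tg2 and 382 in CAG, a difference of 1.13 that was 0.98 and not called without tg2. Hsp26 had 111 FPKM in hom, against 41.9 in tg1, 44.2 in tg2 and 71.7 in CAG, and was not called. The larger chaperones Hsp83, Hsc70-4 and Hsp60 differed by 0.17, 0.13 and 0.03. Among 52 cytochrome P450 loci Cyp4d1 alone was called, with 15.9 FPKM in hom, against 4.27 in tg1, 3.44 in tg2 and 7.59 in CAG. Its call was lost without tg1 and without tg2, at 1.45 and 1.33. In that family 12 loci lay above and 14 below all other lines and the median was 0.06, or −0.03 without tg2. UDP-glycosyltransferases, which couple sugars to small compounds, had 0 calls among 20 loci, against 1.48% of all loci. Of the 20, 2 lay above and 9 below all other lines. Their median was −0.13, or −0.19 without CAG and −0.21 without tg2.

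Structural cuticle protein genes, which build the chitin-bound coat of the adult, stood apart as a list more than as single loci. Of 71 tested loci 1 was called higher and 0 lower, but 40 lay above and 8 below all other lines, 56.3% and 11.3% against 28.6% and 28.7% of all loci. The median was 0.37, and between 0.29 and 0.46 with 1 other line left out. Cpr49Ac had 79.7 FPKM in hom, against 9.65 in tg1, 8.67 in tg2 and 23.7 in CAG, a difference of 2.56 that was not called without tg1 or without tg2, at 2.39 and 2.32. Cpr49Aa had 309.6 FPKM in hom, against 183 in tg1, 97.2 in tg2 and 136 in CAG, and was not called. The most abundant, Acp65Aa, had 3702 FPKM in hom, against 3032 in tg1, 1831 in tg2 and 2855 in CAG. In these 3 genes tg2 was the lowest line.

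Of 24 loci for enzymes that make and remodel chitin 1 was called higher, against 0.686% of all loci. The list median was 0.27, or 0.15 without tg2. Cht4, a chitinase, had 2.45 FPKM in hom, against 0.608 in tg1, 0.402 in tg2 and 0.569 in CAG, a difference of 1.18 at low level. With a mean of 0.526 FPKM in the other lines, Cht4 passed the filter of 1 FPKM only through its hom value. Cht5, the chitinase that digests old cuticle at moults, had 18.3 FPKM in hom, against 29.8 in tg1, 31.6 in tg2 and 41.3 in CAG, and at −0.85 was not called. Of 18 tanning enzyme loci 1 was called lower, against 0.796% of all loci. It was yellow-f2, a dopachrome conversion enzyme, with 5.38 FPKM in hom, against 13.5 in tg1, 12.5 in tg2 and 13.6 in CAG. The tanning enzymes Ddc and Pu differed by 0.03 and 0.10. Osiris genes, which encode membrane proteins of cuticle-forming cells, had a median of 0.47 over 10 loci, but −0.26 without CAG and 0.74 without tg1. The summed level of 108 epidermis marker loci, cuticle protein genes with Ddc and kkv, was 12338 FPKM in hom, against 10546.5 in tg1, 7314 in tg2 and 8426 in CAG.

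Most neuronal genes lay below the other 3 lines in hom, mostly by less than 2-fold and without calls. Of 13 tested genes of synaptic vesicle release 12 lay below all other lines and 0 above, 92.3% against 28.7% of all loci, with a median difference of −0.41. Of 13 voltage-gated ion channel genes 11 lay below and 0 above, with a median of −0.46. Differences ran from −0.78 to 0.00 in the synaptic list and from −0.80 to −0.06 in the channel list. Neither list had a call in either direction, against 1.48% of all loci. In the same lists the medians lay between −0.36 and −0.53 with any 1 other line left out.

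Complexin, the product of cpx, clamps and promotes vesicle fusion. cpx had 81.6 FPKM in hom, against 125 in tg1, 193 in tg2 and 115 in CAG, a difference of −0.78. Snap25, a SNARE protein of the plasma membrane, had 57.5 FPKM in hom, against 87.0 in tg1, 125 in tg2 and 76.5 in CAG. The vesicular glutamate transporter gene VGlut had 14.5 FPKM in hom, against 22.2 in tg1, 32.8 in tg2 and 22.1 in CAG. In all 3 genes tg2 was highest, and in FPKM the gap of hom to the nearest line was smaller than the range of the other 3. The pan-neuronal RNA-binding protein gene elav had 8.46 FPKM in hom, against 11.1 in tg1, 12.3 in tg2 and 10.8 in CAG. Rop, a partner of SNARE proteins in secretion generally, was the exception, with 70.7 FPKM in hom, against 68.5 in tg1, 74.3 in tg2 and 69.0 in CAG.

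The potassium channel gene eag had 2.08 FPKM in hom, against 4.42 in tg1, 4.49 in tg2 and 4.20 in CAG, and its difference of −0.80 was −4.5 times the noise scale. The voltage-gated sodium channel gene para had 14.3 FPKM in hom, against 20.7 in tg1, 25.1 in tg2 and 23.1 in CAG, a difference of −0.64. Sh, the Shaker potassium channel gene, had 23.6 FPKM in hom, against 37.98 in tg1, 48.3 in tg2 and 35.4 in CAG. In eag and para the other lines lay close together and well above hom. Of 31 neuropeptide genes 18 lay below and 3 above all other lines, against 28.7% and 28.6% of all loci. Of the 31, 0 were called, against 1.48% of all loci, and the median was −0.32, or −0.20 without tg2. Chemoreceptor genes, of sensory neurons, had 8 of 18 tested loci below and 2 above all other lines and a median of −0.17. Pdf, the neuropeptide of clock neurons, had 4.83 FPKM in hom, against 7.33 in tg1, 10.8 in tg2 and 8.62 in CAG.

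Nplp3, a neuropeptide precursor-like gene, had the largest gap of the list, with 18.9 FPKM in hom, against 31.6 in tg1, 103 in tg2 and 229 in CAG, and the other lines were spread too widely for a call. The 3 neuropeptide genes above all other lines were Ptth, CCHa2 and NPF. Ptth, the brain hormone that triggers ecdysone release, had 6.99 FPKM in hom, against 4.92 in tg1, 2.98 in tg2 and 3.004 in CAG, a difference of 0.81. CCHa2, a nutrient-dependent hormone of fat body and gut, had 108 FPKM in hom, against 73.7 in tg1, 67.7 in tg2 and 72.9 in CAG, a difference of 0.59. Neither was called. Glial genes lay on both sides, with 5 of 8 below and 2 above all other lines, against 28.7% and 28.6% of all loci. Eaat1, the glial glutamate transporter gene, had 85.2 FPKM in hom, against 129 in tg1, 204 in tg2 and 157 in CAG, a difference of −0.91, while wrapper, of midline glia, differed by 0.35.

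Most genes of light detection also lay below the other lines. Of 25 tested phototransduction genes 19 lay below and 2 above all other lines, against 28.7% and 28.6% of all loci, and the median was −0.40. Of the 25, 1 was called lower, against 0.796% of all loci. That gene was Rh5, the blue-sensitive opsin of inner photoreceptors, at 2L:12008376-12009845. Rh5 had 1.28 FPKM in hom, against 5.89 in tg1, 16.3 in tg2 and 19.7 in CAG, a difference of −2.57. The call was lost without CAG and without tg2, at −2.26 and −2.39. The opsins were unequal: Rh6, the green-sensitive opsin of neighbouring inner photoreceptors, had 17.2 FPKM in hom, against 18.0 in tg1, 16.7 in tg2 and 19.9 in CAG, and Rh3 and Rh4 differed by −0.44 and −0.39.

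The main opsin gene ninaE, of the outer photoreceptors, had 747 FPKM in hom, against 826 in tg1, 962 in tg2 and 919 in CAG. norpA, the phospholipase C that carries the light signal, had 30.1 FPKM in hom, against 53.8 in tg1, 53.0 in tg2 and 47.4 in CAG, a difference of −0.75. Arr1, an arrestin that ends the signal, had 94.0 FPKM in hom, against 137 in tg1, 143 in tg2 and 138 in CAG, a difference of −0.56. For norpA and Arr1 the gap in FPKM to the nearest line was larger than the range of the other 3. The genes above all other lines were santa-maria, a scavenger receptor for carotenoid uptake, at 0.65, and ninaB, the enzyme that cleaves carotenoids to retinal, at 0.42; both act outside the photoreceptors. Eye pigment genes did not share the shift, with 8 of 18 above and 5 below all other lines, against 28.6% and 28.7% of all loci. Their median was 0.09.

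**Figure D4:**
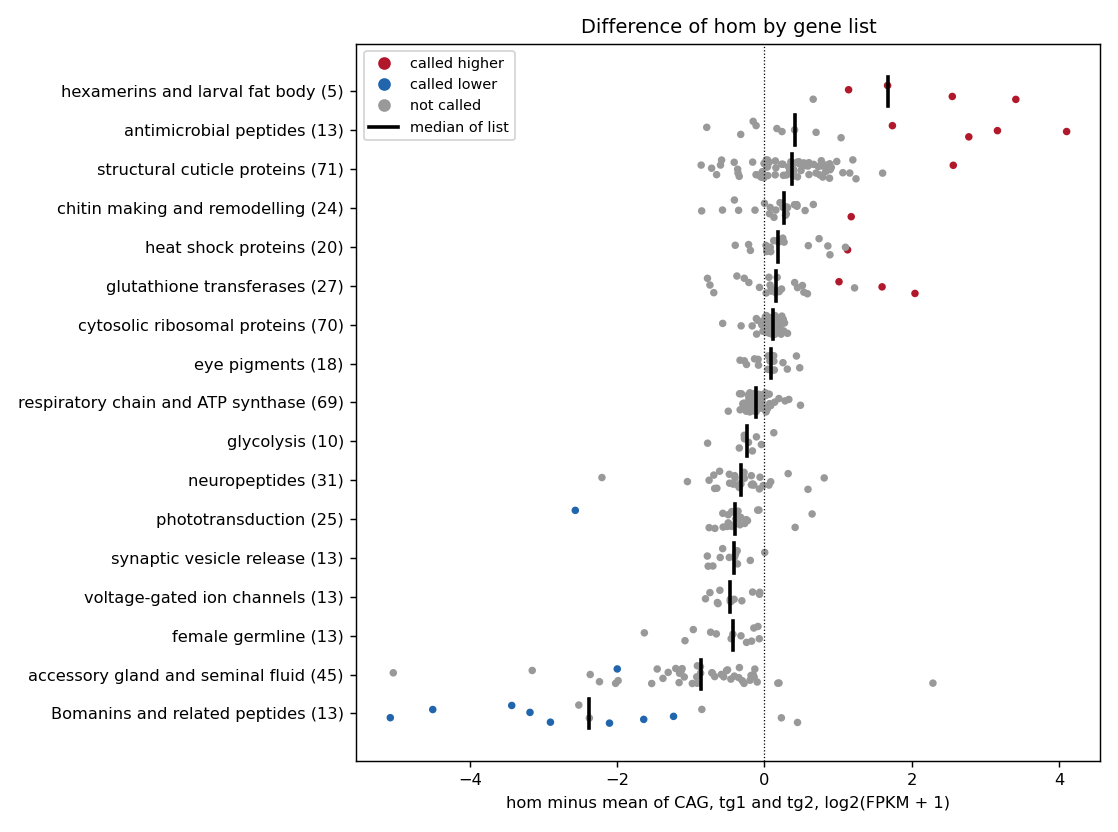
Difference of hom from the mean of CAG, tg1 and tg2 on the log2(FPKM + 1) scale (horizontal axis) for the tested loci of 17 gene lists, with the number tested in brackets and 1 point per locus, spread vertically for visibility. Black bars mark list medians, which lie at 1.67 for hexamerins and at −2.38 for Bomanins, while the neuronal lists lie near −0.4 with hardly a called point.

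The neuron and photoreceptor markers are members of the lists just described, so their sums are no separate measure. Each of the 4 neuron markers, 8 of 9 photoreceptor markers and 4 of 5 muscle markers lay below all other lines, and none of them was listed at 0. The 4 neuron markers summed to 88.1 FPKM in hom, against 129 in tg1, 174 in tg2 and 121 in CAG, and the 9 photoreceptor markers to 1234 FPKM in hom, against 1485 in tg1, 1680.1 in tg2 and 1595 in CAG. The 5 muscle markers summed to 11352 FPKM in hom, against 14244 in tg1, 14211 in tg2 and 13067 in CAG. Over the 27 tested sarcomere loci 11 lay below and 2 above all other lines, against 28.7% and 28.6% of all loci. The sarcomere median was −0.12, or −0.08 without CAG. The part of these tissues in the differences of other lists was not tested. The part of depth was not tested either, and hom was the shallowest of the 4 libraries.

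The difference of hom varied with locus span, though not in one direction throughout, and neuronal loci are long. Over 9672 tested protein-coding loci split into 10 bins by span, the median difference was −0.04 in the shortest bin, 0.07 in the fourth bin, with spans of 2.23 to 3.07 kb, and −0.13 in the longest bin, with spans of 35.1 to 949.8 kb. In the shortest bin 281 of 968 loci lay below all other lines and 242 above. In the longest bin 44.98% of loci lay below all other lines and 14.9% above. The median span was 31.4 kb for the synaptic list, of which 92.3% lay below all other lines. In the bin of 17.1 to 35.1 kb 40.7% did. For the ion channel list the median span was 47.5 kb and 84.6% lay below, against 44.98% in the longest bin. Phototransduction loci were shorter, with a median span of 5.82 kb, and 76.0% lay below all other lines, against 24.9% in the bin of 4.32 to 6.29 kb. The lists were not matched to other loci by span, and how far span enters the list differences was not tested.

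**Figure D5:**
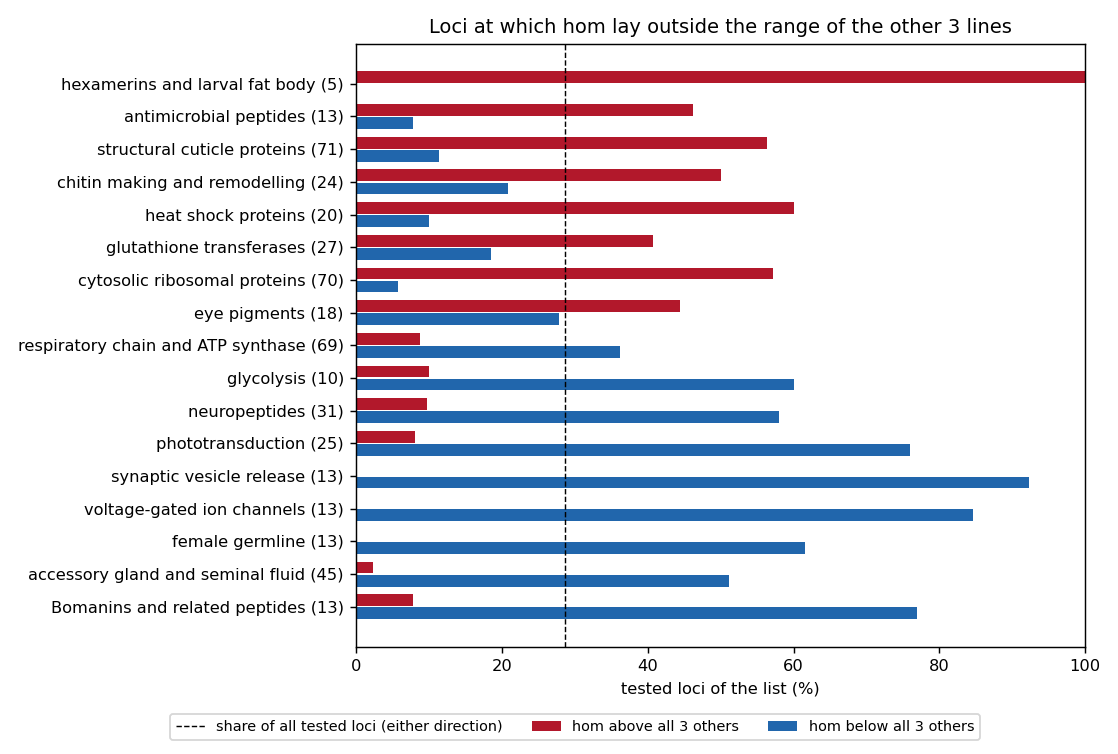
Share of tested loci (horizontal axis, percent) at which hom lay above (red) or below (blue) each of the other 3 lines, for 17 gene lists with the number tested in brackets. The dashed line marks the share over all tested loci, 28.6% above (28.7% below), which the blue bars of the synaptic, ion channel, Bomanin and phototransduction lists exceed by more than 40 percentage points.

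Accessory gland genes were highest in CAG, and hom lay nearer to tg1 and tg2. Accessory gland and seminal fluid loci encode proteins passed to the female at mating. Of 45 tested 1 was called lower and 0 higher, against 0.796% and 0.686% of all loci. Below all other lines lay 23 of the 45, against 28.7% of all loci. The list median was −0.87 but −0.27 without CAG. Acp95EF had 77.8 FPKM in hom, against 115 in tg1, 80.5 in tg2 and 500.0 in CAG, so hom lay next to tg2. Acp33A (CG15841) was the called locus, with 9.29 FPKM in hom, against 25.4 in tg1, 54.1 in tg2 and 46.9 in CAG, and without CAG or without tg2 it was not called, at −1.89 and −1.79. Summed over 42 marker loci, of which 6 were listed at 0 in hom, 4 in tg1, 3 in tg2 and 1 in CAG, the accessory gland had 565 FPKM in hom, against 898 in tg1, 757 in tg2 and 2706 in CAG.

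Of 57 testis loci 17, or 29.8%, lay below and 4 above all other lines, against 28.7% and 28.6% of all loci. The share below was thus near that of all loci. The testis median was −0.12, or −0.04 without tg2, and 1 locus was called lower, against 0.796% of all loci. The one call, CCY, a gene of the Y chromosome, was listed at 0 in hom, which can likewise be a failed estimate, against 10.4 FPKM in tg1, 66.9 in tg2 and 43.1 in CAG, and was not called without CAG. Of 13 female germline loci 8, or 61.5%, lay below and 0 above all other lines, against 28.7% and 28.6% of all loci. In this list 0 loci were called, against 1.48% of all loci, and the median was −0.43, or −0.28 without CAG or tg2. osk, which builds the germ plasm of the egg, had 0.851 FPKM in hom, against 2.21 in tg1, 7.16 in tg2 and 6.22 in CAG, and the germline gene piwi had 1.31 FPKM in hom, against 2.51 in tg1, 5.65 in tg2 and 3.97 in CAG. In both genes tg1 lay closest to hom. The dosage compensation RNA roX2 had 677 FPKM in hom, against 364 in tg1, 508 in tg2 and 548 in CAG.

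Housekeeping lists gave no calls, against 1.48% of all loci, and small differences. Over all loci 28.6% lay above and 28.7% below all other lines. Of 70 cytosolic ribosomal protein loci 40, or 57.1%, lay above and 4 below all other lines with a median of 0.12, or 0.05 without tg2. The most abundant, RpL41, had 7546 FPKM in hom, against 8416 in tg1, 6766 in tg2 and 6699.9 in CAG. Of 68 mitochondrial ribosomal protein loci 19 lay above, 27.9% and so near the share of all loci, and 1 lay below. Their median was 0.08, or 0.03 without CAG, 0.14 without tg1 and 0.04 without tg2. Respiratory chain and ATP synthase loci lay on the other side, with 6 of 69 above, 25 below and a median of −0.12, or −0.07 without tg2. Glycolysis loci had 6 of 10 below all other lines and a median of −0.24. Proteasome loci mostly lay inside the range of the other 3 lines, at 32 of 41.

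By position, 37 of the 149 calls lay on 2R and 36 on 3L, 1.87% and 1.85% of the loci tested there, and 19 on the X, 1.17%. Calls in the same direction within 20 kb of each other formed 14 groups with 32 loci, of which the Bomanin cluster was the largest. Other groups were Dpt with DptB, GstD10 with GstD8, CG8100 with Fbp1, and LysB with LysD. Chromosome 4, the small and largely heterochromatic chromosome, had 0 calls among 80 loci, against 1.48% of all loci. Below all other lines lay 53 of its loci, 66.2%, and above them 3, against 28.7% and 28.6% of all loci. Its median was −0.25. The small heterochromatic and unplaced scaffolds had 10 of 16 loci below on 2RHet, 6 of 15 on 3LHet and 6 of 12 on 3RHet. On YHet 5 of 6 lay below, on 2LHet 2 of 3, on U 13 of 31, on Uextra 6 of 12 and on XHet 2 of 7. Without CAG, tg1 or tg2 the protein-coding loci of chromosome 4 had medians of −0.32, −0.24 and −0.21. On that chromosome Gat (CG1732), the glial GABA transporter gene, had 158 FPKM in hom, against 269 in tg1, 315 in tg2 and 184 in CAG, and Syt7, a calcium sensor of membrane fusion, had 26.2 FPKM in hom, against 47.6 in tg1, 54.9 in tg2 and 35.3 in CAG. The fat body product apolpp, described above, was one of the 3 loci that lay above.

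Small nucleolar RNA loci, which guide the modification of ribosomal RNA, held the most extreme calls, and most of the called ones were listed at 0 in some library. Of 125 tested loci that RefSeq types as such, 2 were called higher and 6 lower, against 0.686% and 0.796% of all loci. Listed at 0 in at least 1 library were 42 of the 125, 32 of them in hom. snoRNA:Me18S-G894, which has no RefSeq type here, was also called higher, with 145.7 FPKM in hom, and was listed at 0 in tg1, tg2 and CAG. snoRNA:Me18S-C1831 was above 0 throughout, with 13306 FPKM in hom, against 4431 in tg1, 7219.9 in tg2 and 4882 in CAG, a difference of 1.30. snoRNA:Or-CD10 was listed at 0 in hom, against 20450.0 FPKM in tg1, 9927 in tg2 and 8699.6 in CAG. A value of 0 in such files can be a failed estimate, and the same holds for fax, failed axon connections, a protein-coding gene listed at 0 in hom, against 54.9 FPKM in tg1, 58.6 in tg2 and 56.3 in CAG.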

How the data were processed

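The 4 libraries, 1 per line, of ribosome-depleted RNA from pharate adults were used; per the labels' protocols, sequencing was paired-end, 48 nt per read, by Illumina HiSeq. Build dm3 and the tools Cufflinks, TopHat, bedtools and SAMtools stand in the submitters' processing notes without versions. The deposited values are FPKM per locus, computed by the authors, per the file headers; the sources used here give no library totals, annotation or use of strand. FPKM are not counts, so no count test was run. Fragments may be split between overlapping or near-identical loci.

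From these values the difference, the noise scale and the calls described above were computed with Python 3.11.15, numpy 2.4.6 and pandas 2.3.3. The scale was log2(FPKM + 1), which understates differences of low loci, and the noise scale was never below the median spread in 10 bins of equal size by mean FPKM. Names were matched to RefSeq Release 6 symbols, directly or through a synonym of a single gene: 11839 of 12066 single names matched, and only names and gene types were taken from there. Coordinates are dm3, counted from 1. Relative depth came from loci below 0.15 FPKM in both libraries: 31 of 66 for hom, 26 of 96 for tg1 and 42 of 92 for tg2 lay within 0.03 of the given ratio on the natural log scale. The script was tested on simulated data.

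The members and the 46 gene lists were chosen with earlier results of these data known. Loci were named by a rule: the 15 largest and 15 smallest differences among called protein-coding loci without a 0, the called extremes and the most abundant member of each list, the extremes of lists without a call, and the most abundant called RNA genes. Other loci named, the analysis by span and the account of chromosome 4 were chosen after the values were seen. Alternatives were other pseudocounts, scalings, filters, thresholds and centres, and leaving out each other line, where the spread then rests on 2 libraries. No sequences were used here.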

Additional observations from a re-analysis of the deposited data

Results flagged for a closer look

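Loci outside the single-name set were not used in the comparison and carried differences of hom by the same rule. Among 916 tested loci with several joined names, 9 were called, 6 higher and 3 lower, or 0.983% against 1.48% of single-name loci. Among 722 tested loci without a name, 28 were called, 10 higher and 18 lower, 3.88% against 1.48% of single-name loci.

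The joined locus of CG42847 and Fbp2, a fat body protein gene, at 2L:9426763-9428754, had 1989.6 FPKM in hom, against 392 in tg1, 396 in tg2 and 441 in CAG, a difference of 2.28. It lay with Fbp1 and the Lsp genes on the higher side. The joined locus of Obp57a, Obp57b and Obp57c had 8.51 FPKM in hom, against 31.4 in tg1, 64.1 in tg2 and 80.3 in CAG, a difference of −2.55. The joined locus of ZnT63C, a zinc transporter gene, and dro2 had 88.0 FPKM in hom, against 26.8 in tg1, 27.6 in tg2 and 29.1 in CAG. The largest joined difference, 5.01, was at RpL28 with small nucleolar RNAs, at 7461 FPKM in hom, against 241 in tg1, 218 in tg2 and 234 in CAG. Of the loci without a name, 3R:20651522-20652209 had 70.5 FPKM in hom, against 4.31 in tg1, 3.13 in tg2 and 4.76 in CAG.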

How the results depend on the processing

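The counts of 69 higher and 80 lower calls stayed within 1.5 times under both scalings and both other filters. The same held for the median of the other lines, protein-coding loci only, loci without a 0 and leaving out arm 2R. Leaving out loci that RefSeq types as small nucleolar RNA, added after seeing the data, also kept the counts within 1.5 times. The spread of the locus alone gave the same counts but could not have changed them. The lower limit of the noise scale was at most 0.207. At the reported call ratio this limit stays below the required difference of 1, so it decided no reported call. Lower calls numbered 142 with a pseudocount of 0.1, 38 with a pseudocount of 5 and 134 at a ratio of 2; the share of calls that were higher was 46.3% as reported, 35.7% with 0.1 and 56.8% with 5. A ratio of 5 left 41 higher and 32 lower calls, a 1.5-fold difference gave 162 and 219, and a 4-fold difference 21 and 27. With 1 other line left out, higher calls ranged from 73 to 105 and lower calls from 81 to 144. Of 2240 recomputed differences of 280 named loci, 181 moved by more than the noise scale. That 0 called loci changed sign was largely fixed by the call rule, which puts hom outside the range of the other lines. Of 46 list medians 13 changed sign under some alternative, among them Osiris proteins, lysozymes, P450s and insulin pathway; lists without calls near 0 carry no direction. No paired analysis was possible because each line has 1 library. Depth limits low loci in hom most.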
